A study of Arabidopsis thaliana with 12 samples.

Results

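The genes described here are 4 members of the cytosolic HSP70 system of Arabidopsis thaliana: the HSP70 genes HSC70-2 (AT5G02490) and HSC70-3 (AT3G09440), the co-chaperone gene FES1A (AT3G09350) and the J-domain gene AT1G71000. They were chosen by name, each through the probe set that carries it, and they are 4 of the 10227 genes that the array table measured with a single-gene probe set. Seedlings aged 7 days, grown at 22 °C, were profiled on Affymetrix arrays, 12 in all, either left at 22 °C (control) or sampled after 1 h at 37 °C (heat). The groups, each with 2 biological replicates, were QK at heat and at control, Ws at heat and at control, and Col-0 at heat and at control. Ws and Col-0 are wild-type accessions. The published description of QK is of a mutant without 4 class A1 heat shock factors, with alleles from both accessions, so neither accession alone is its full background. The genes that QK lacks were not analysed here.

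HSP70 proteins bind exposed hydrophobic stretches of unfolded client proteins and release them in a cycle driven by ATP. J-domain proteins deliver clients and stimulate ATP hydrolysis, and nucleotide exchange factors, among them FES1-type proteins, open the HSP70 again by releasing ADP. In plants the class A1 heat shock factors are the master transcription factors of the acute heat response, and cytosolic HSP70 proteins in turn bind and restrain these factors. FES1A associates with cytosolic HSP70 in Arabidopsis, and plants that lack it are less thermotolerant.

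Both arrays labelled Col-0 replicate 2 went against their treatment labels. Of 62 probe sets at least 4-fold brighter at heat in both Ws and QK, with the 4 genes left out, 62 had, within the Col-0 pair of replicate 2, the brighter signal on the array labelled control. On the replicate 1 arrays of Col-0, 62 of the 62 were brighter at heat. The Ws and QK comparisons were therefore fitted on the 8 arrays of these lines, and each Col-0 value is given in 2 forms, the second leaving that pair out. Array medians lay between 75.6 and 87.3 signal units. Fold changes in the tests are on the scale log2(signal + 16), which understates changes of dim probe sets, and "called" means a Benjamini-Hochberg adjusted p under 0.05 over 13631 tested probe sets and a change of at least 2-fold, in limma. All 4 probe sets passed the filter on dim signals: FES1A and HSC70-3 lay above the 35th percentile of the array on 12 of 12 arrays, HSC70-2 on 11, and AT1G71000 on 4. These 4 were both heated Ws arrays, Col-0 heat replicate 1 and the array that carries the label Col-0 control replicate 2, so AT1G71000 was tested only because of the arrays on which it was bright. It had to differ there, and its calls at heat are given as a description.

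In Ws seedlings 1 h at 37 °C raised all 4 genes, by 6.43-fold for HSC70-2, 7.69-fold for HSC70-3, 59.8-fold for FES1A and 128-fold for AT1G71000 on the signal + 16 scale, where the value for AT1G71000 depends on the addend. Without AT1G71000, which was tested only through its bright arrays, this was 3 of 3 called as raised, where 3.46% of all tested probe sets were. In QK 0 of 4 were called as raised, against 1.17% of all tested probe sets. At heat all 4 were called as lower in QK than in Ws, or 3 of 3 without AT1G71000, against 2.7% of all tested probe sets. The QK heat response itself was called as smaller than the Ws response for HSC70-2, FES1A and AT1G71000 but not for HSC70-3, so 3 of 4, or 2 of 3 without AT1G71000, against a background of 1.25%. When all 12 arrays were fitted together, 0 of 4 were called in each of these comparisons: for heat in Ws 0.0587% of all tested probe sets were called as raised, for heat in QK 0.249%, for a smaller QK response 0%, and as lower in QK at heat 0.403%. These comparisons share arrays, so the values of 1 gene across them are not independent. In seedling RNA, fewer cells that express a gene and less RNA per cell cannot be told apart.

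HSC70-2 encodes a cytosolic HSP70 chaperone. Its signal was 41.9 and 69.0 in QK at heat, against 54.0 and 51.2 in QK at control. In Ws its signal was 752.2 and 971.0 at heat, against 104.2 and 136.5 at control. The QK arrays overlapped between treatments, while both heated Ws arrays stood above both Ws control arrays and all 4 QK arrays. The group means were 55.4 ± 19.2 in heated QK and 862 ± 155 in heated Ws (SD, n = 2 each). In limma over the 8 arrays the heat response in Ws was 2.69 on the log2 scale (SE 0.25, 95% interval 2.09 to 3.28, adjusted p = 0.00208). In QK it was 0.03 (SE 0.25, 95% interval -0.57 to 0.63, adjusted p = 0.966). The QK response was lower than the Ws response by a difference of -2.65 (SE 0.35, 95% interval -3.50 to -1.81, adjusted p = 0.0249). That call was lost, with adjusted p between 0.0699 and 0.112, when any array other than QK heat replicate 2 was left out. At heat HSC70-2 was 12.4-fold lower in QK than in Ws (log2 difference -3.63, SE 0.25, adjusted p = 0.000812).

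HSC70-3 is a further cytosolic HSP70 gene. It measured 617.0 and 1313.8 in QK at heat, against 430.7 and 653.5 in QK at control. In Ws it measured 9194.7 and 10064.3 at heat, against 733.6 and 2078.4 at control. The QK treatments overlapped, since heated replicate 1 lay below control replicate 2, and the Ws treatments did not. The Ws control arrays differed by 2.83-fold from each other, the widest replicate gap of this gene outside Col-0. The limma log2 response in Ws was 2.94 (SE 0.56, 95% interval 1.60 to 4.29, adjusted p = 0.0293), and in QK it was 0.75 (SE 0.56, 95% interval -0.60 to 2.09, adjusted p = 0.536). The difference between the responses, -2.20 (SE 0.79, 95% interval -4.10 to -0.30), did not pass after adjustment (adjusted p = 0.574). At heat HSC70-3 was 10.5-fold lower in QK than in Ws (log2 difference -3.39, SE 0.56, adjusted p = 0.0211).

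The Ws call for HSC70-3 was the least stable of the 4. It was lost on leaving out Ws heat replicate 1 (adjusted p = 0.143) or replicate 2 (0.141), Ws control replicate 1 (0.0983, with a log2 change of 2.20), QK control replicate 1 (0.0505) or replicate 2 (0.0506), and with the 4 Ws arrays alone (0.0811). The lower level in heated QK was not called without QK heat replicate 1 (adjusted p = 0.114), Ws heat replicate 1 (0.120) or Ws heat replicate 2 (0.128).

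FES1A encodes the nucleotide exchange partner. Its signal was 96.5 and 267.0 in QK at heat, against 51.5 and 66.6 in QK at control. In Ws it was 7557.8 and 6946.9 at heat, against 73.7 and 148.4 at control. The treatments did not overlap in either line, but the brighter heated QK array stood at 267.0 while the dimmer heated Ws array stood at 6946.9. On the plain signal scale heat over control was 1.87 and 4.01 in the QK pairs of equal replicate number, and 102.5 and 46.8 in the Ws pairs. The limma log2 response in Ws was 5.90 (SE 0.48, 95% interval 4.75 to 7.06, adjusted p = 0.00136). In QK it was 1.26 (SE 0.48, 95% interval 0.10 to 2.41), with an unadjusted p of 0.0370 and an adjusted p of 0.225. The QK response differed from the Ws response by -4.65 (SE 0.68, 95% interval -6.28 to -3.01, adjusted p = 0.0344). This call was lost, with adjusted p between 0.0575 and 0.159, when any array other than QK heat replicate 2 was left out, and with an addend of 1 in place of 16 (adjusted p = 0.0523). At heat FES1A was 40.7-fold lower in QK than in Ws (log2 difference -5.35, SE 0.48, adjusted p = 0.00212).

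AT1G71000 was bright on the heated Ws arrays and dim on every QK and Ws control array. Its signal was 10.2 and 25.0 in QK at heat, against 8.9 and 8.3 in QK at control. In Ws it was 4439.1 and 2484.6 at heat, against 9.7 and 10.3 at control. Heated QK replicate 2, at 25.0, was the brightest of the QK arrays, and all QK and Ws control signals lay between 8.3 and 10.3. With no detection calls used, a signal near 10 cannot be set apart from background, so the size of the fold rests on the addend. The limma log2 response in Ws was 7.00 with an addend of 16 (SE 0.32, 95% interval 6.23 to 7.78, adjusted p = 0.000184), 8.24 with an addend of 1 and 5.52 with an addend of 64. In QK the response was 0.41 (SE 0.32, 95% interval -0.36 to 1.19, adjusted p = 0.553). The difference between the responses was -6.59 (SE 0.45, 95% interval -7.68 to -5.50, adjusted p = 0.00281). That call was kept on leaving out each of the 8 arrays in turn. A bright heated Ws array remained each time, and the gene was tested only through such arrays, so this adds no support. At heat AT1G71000 was lower in QK than in Ws by a log2 difference of -6.67 with an addend of 16 (SE 0.32, adjusted p = 0.000260), -7.60 with an addend of 1 and -5.38 with an addend of 64. Both heated QK signals were below the 35th percentile of their arrays, so no exact fold is given.

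**Figure D1:**
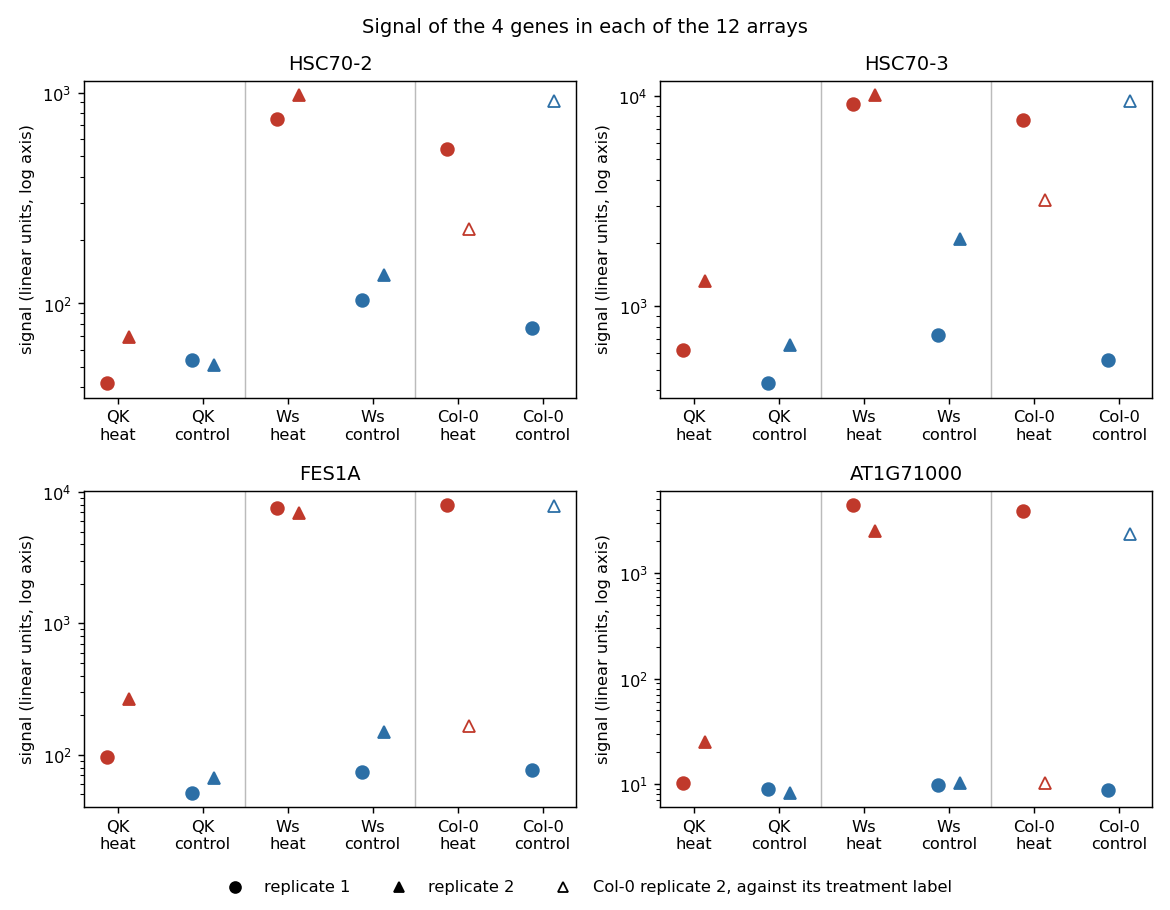
Signal of HSC70-2, HSC70-3, FES1A and AT1G71000 on each of the 12 arrays (log axis), 1 point per array and grouped by line and treatment. Both heated Ws arrays lie above every QK array for each gene, and the arrays labelled Col-0 replicate 2 lie in the reverse order of their treatment labels.

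Without heat, 0 of 4 genes were called as different between QK and Ws, where 0.183% of all tested probe sets were. The 4 log2 differences were -0.98 for HSC70-2 (SE 0.25, 95% interval -1.58 to -0.38, adjusted p = 0.404), -1.20 for HSC70-3 (SE 0.56, adjusted p = 0.797), -0.70 for FES1A (SE 0.48, adjusted p = 0.946) and -0.08 for AT1G71000 (SE 0.32, adjusted p = 0.9999). For each of the 4 genes both QK control signals lay below both Ws control signals. The share of all tested probe sets that separated in this way was not counted, so no difference between the lines is read from it. The AT1G71000 control signals cannot be set apart from background. HSC70-2, with 54.0 and 51.2 in QK against 104.2 and 136.5 in Ws, had an unadjusted p of 0.00662.

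The 4 genes differed among themselves in how far apart the control and heated states lay in Ws. The HSP70 genes were already at 104.2 to 136.5 (HSC70-2) and 733.6 to 2078.4 (HSC70-3) without heat. Their heat over control signal ratios by replicate number were 7.22 and 7.11 for HSC70-2, and 12.5 and 4.84 for HSC70-3. FES1A had wider ratios, 102.5 and 46.8. For AT1G71000 the ratios were 458 and 241, but its control signals cannot be set apart from background, so their size is not fixed and they are not ranked with the others. The level of 1 probe set cannot be compared with that of another on these arrays, so only the ratios are set side by side.

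**Figure D2:**
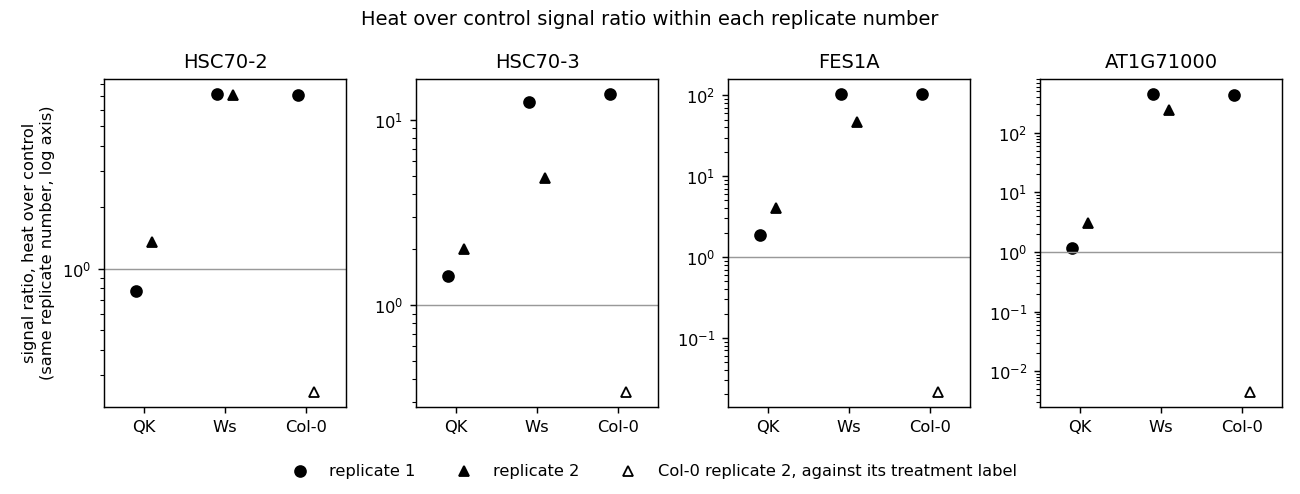
Heat over control signal ratio for each pair of arrays with the same replicate number (log axis; the line marks a ratio of 1), for the 4 genes in QK, Ws and Col-0. Ws pairs lie between 4.84 and 458, QK pairs between 0.776 and 4.01, and the Col-0 pair labelled replicate 2 lies below 1 for every gene.

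Arrays of equal replicate number were compared next. Heated QK replicate 2 was the brightest of the 4 QK arrays for each of the 4 genes. HSC70-3 was brighter in replicate 2 in all 4 QK and Ws groups, by 2.13-fold in heated QK, 1.52-fold in QK at control, 1.09-fold in heated Ws and 2.83-fold in Ws at control. With the replicate number as a block in limma, its replicate term was 0.82 on the log2 scale (SE 0.21, adjusted p = 0.0351), under the 2-fold needed for a call. The term was 0.30 for HSC70-2 (adjusted p = 0.111), 0.59 for FES1A (adjusted p = 0.109) and -0.05 for AT1G71000 (adjusted p = 0.889). Of all tested probe sets 4.94% were called for it. The block changed no call of the 4 genes in the 8-array comparisons, although 2 values came close: adjusted p = 0.0511 for FES1A in QK and adjusted p = 0.0582 for the HSC70-3 response difference.

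**Figure D3:**
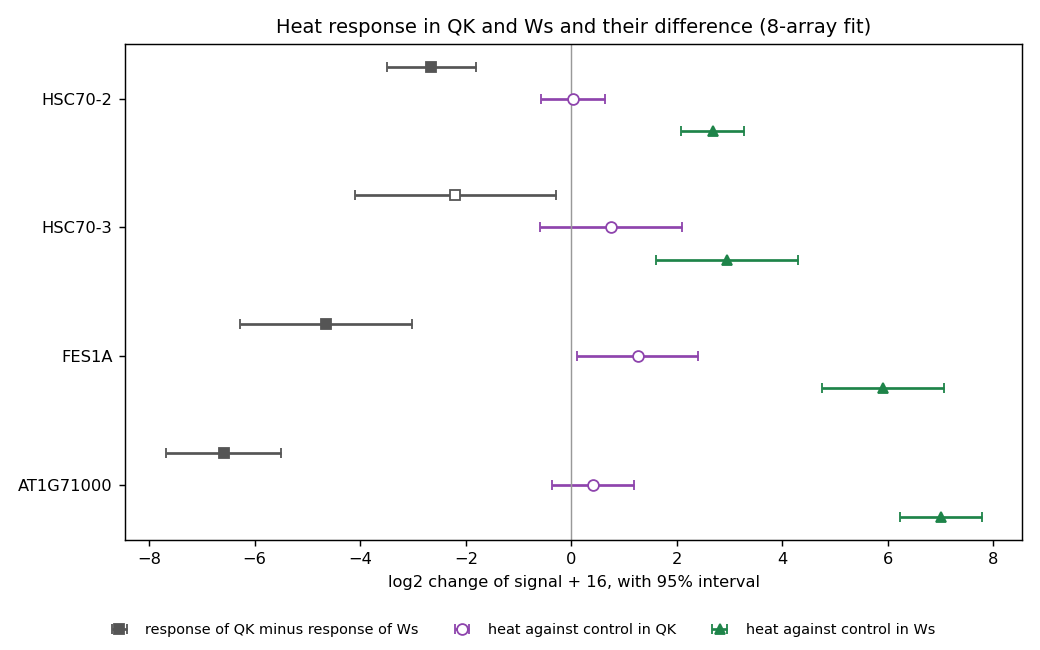
Log2 changes of the 4 genes from the 8-array limma fit with 95% intervals, for the QK heat response minus the Ws heat response, the heat response in QK and the heat response in Ws. The Ws responses lie between 2.69 and 7.00 and the QK responses between 0.03 and 1.26, and the interval for the HSC70-3 difference reaches to -0.30.

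In Col-0 the labels and the signals disagreed. HSC70-2 had signals of 543.4 and 224.6 on the arrays labelled heat, against 76.7 and 910.4 on those labelled control. HSC70-3 had 7720.6 and 3185.3 on the arrays labelled heat, against 556.7 and 9415.8 on those labelled control. FES1A, with 7987.6 and 166.6 labelled heat against 76.1 and 7863.5 labelled control, showed the reversal of replicate 2 most plainly beside AT1G71000, with 3868.0 and 10.3 labelled heat against 8.8 and 2345.9 labelled control. Replicate 1 followed its labels for all 4 genes, at 7.08-fold, 13.9-fold, 105-fold and 439.5-fold in the same order. On the arrays labelled replicate 2 the ratios were 0.247, 0.338, 0.0212 and 0.00439.

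With all 12 arrays as labelled, the Col-0 heat response was called for 0 of 4 genes, and for 0 of all probe sets, of which 8 had an unadjusted p under 0.05. The log2 values were 0.32, 1.10, 0.50 and 0.40 for HSC70-2, HSC70-3, FES1A and AT1G71000, and their adjusted p-values in limma rounded to 1.0. AT1G71000 was tested only through its bright arrays, Col-0 heat replicate 1 among them. It had to be bright there, so its calls for heat in Col-0 are a description and add no support to the counts below. Without both arrays labelled replicate 2, each Col-0 group holds 1 array, which is assumed to vary like the Ws and QK groups. In that 10-array fit 3 of 4 genes were called as raised in Col-0, where 1.59% of all tested probe sets were. The values were 2.59 for HSC70-2 (SE 0.35, adjusted p = 0.0205), 6.44 for FES1A (SE 0.68, adjusted p = 0.00868) and 7.29 for AT1G71000 (SE 0.45, adjusted p = 0.00158). HSC70-3, at 3.76 (SE 0.79, adjusted p = 0.0830), was called only with the replicate block (adjusted p = 0.00568), which made it 4 of 4 against 2.88% of all tested probe sets.

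QK was set against Col-0 in the same 2 ways. The calls of AT1G71000 at heat are again a description and add no support to the counts, since Col-0 heat replicate 1 was among the bright arrays through which it was tested. At heat, 0 of 4 genes were called with the 12 arrays as labelled, where 1.65% of all tested probe sets were in either direction, with log2 differences between -3.29 and -2.39. When that pair was left out, 3 of 4 were called as lower in QK, where 1.96% of all tested probe sets were. These were HSC70-2 at -3.00 (adjusted p = 0.00533), FES1A at -5.49 (adjusted p = 0.00637) and AT1G71000 at -6.89 (adjusted p = 0.000772), while HSC70-3 stood at -3.08 (adjusted p = 0.0810; 0.00401 with the replicate block, then 4 of 4 against a background of 3.15%). At control 0 of 4 were called in the 12-array fit, where 0.462% of all tested probe sets were, with differences between -3.51 and -2.09. The 10-array values at control were -0.43, -0.07, -0.30 and -0.01, again with 0 called, where 0.359% of all tested probe sets were.

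The 2 accessions were not called as different for any of the 4 genes. At heat the 10-array Ws minus Col-0 differences were 0.64 for HSC70-2, 0.32 for HSC70-3, -0.14 for FES1A and -0.22 for AT1G71000, where 0.352% of all tested probe sets were called. At control they were 0.55, 1.13, 0.40 and 0.07, where 0.213% were called. With all 12 arrays as labelled, the same 4 differences were 1.25, 0.95, 2.59 and 3.38 at heat, where 0.22% of all tested probe sets were called. At control they were -1.11, -0.89, -2.81 and -3.22, where 0.132% were called. The sign at control, and for FES1A and AT1G71000 at heat, thus turned with the Col-0 pair labelled replicate 2, and the 10-array intervals still allowed a difference of 1.96 at heat and 2.78 at control for HSC70-3.

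Ordered by mean log2 signal with the labels as given, all 4 genes were highest in heated Ws, followed by Col-0 at heat and Col-0 at control, and lowest in QK at control. For HSC70-2 and HSC70-3 Ws at control came next and heated QK after it, while for FES1A and AT1G71000 heated QK came before Ws at control. Both Col-0 groups spanned the 2 states, so they overlapped with each other for all 4 genes. The lowest 2 groups overlapped for HSC70-2 and HSC70-3, where they were heated QK and QK at control. For FES1A and AT1G71000 they were QK at control and Ws at control, which did not overlap.

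The rest of the HSP70 system was counted from lists of 75 loci, of which 31 had a single-gene probe set and 28 were tested. With the 4 genes among them, 12 of 28 were raised by heat in Ws and 0 lowered, with a median log2 change of 0.66 against -0.05 over all tested probe sets. Without the 4 genes, 8 of 24 were raised, with a median of 0.53. Among the 8 was AT2G33735, which like AT1G71000 was bright only on the heated Ws arrays and 2 Col-0 arrays. In QK 2 of 28 were raised and 0 lowered, with a median of 0.13 against -0.002 over all tested probe sets. Of all tested probe sets 3.46% were raised in Ws and 1.17% in QK, while 2.05% were lowered in Ws and 1.36% in QK. The QK response was called as smaller than the Ws response for 9 of 28, or 6 of 24 without the 4 genes, against a background of 1.25%. A larger QK response was called for 0 of 28, where 0.0954% of all tested probe sets were. The count of 9 came to between 1 and 4 on leaving out any 1 array other than QK heat replicate 2, and to 7 without that array. The 2 raised in QK became 1 on leaving out QK heat replicate 2 or either array of QK control or of heated Ws. The median difference of the 28 was -0.29, against 0.04 over all tested probe sets. Of the cytosolic HSP70 list only HSC70-2 and HSC70-3 had a tested single-gene probe set (2 of 7 loci), and of the organelle HSP70 list 0 of 7 did, so neither list can be described beyond them.

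Among the J-domain genes, whose products start the HSP70 cycle, 17 of 37 loci were tested. In Ws 5 of the 17 rose, AT1G71000 included, where 3.46% of all tested probe sets were raised. AT2G20560 had signals of 20.4 and 87.1 in heated QK and 12.3 and 13.4 in QK at control, against 3715.8 and 2995.6 in heated Ws and 37.9 and 60.8 in Ws at control. It rose by 5.70 on the log2 scale in Ws (adjusted p = 0.00145), and its QK response, 1.09 (adjusted p = 0.281), was lower than the Ws response (difference -4.62, adjusted p = 0.0342). AT3G14200 rose by 3.55 in Ws (adjusted p = 0.000943), with 0.05 in QK (adjusted p = 0.955) and a difference of -3.50 (adjusted p = 0.0109). The 2 others were AT4G28480, at 2.19 in Ws (adjusted p = 0.00193) with a response difference of -2.62 (adjusted p = 0.0116), and AT2G33735, at 2.18 in Ws (adjusted p = 0.00623) with a difference of -2.13 that was not called (adjusted p = 0.0633) except with the replicate block (adjusted p = 0.0224). AT2G33735 was bright only on the heated Ws arrays (239.1 and 134.9), Col-0 heat replicate 1 (195.6) and the array labelled Col-0 control replicate 2 (116). Its other signals lay between 22 and 39.2, so its calls at heat, like those of AT1G71000, are a description. The remaining 12 tested J-domain genes did not pass in Ws.

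ERDJ3B, which encodes a J-domain protein of the endoplasmic reticulum, ran the other way. Its signal was 1518.5 and 2325.1 in heated QK and 371.8 and 488.4 in QK at control, against 682.0 and 714.2 in heated Ws and 365.4 and 490.2 in Ws at control. It rose in QK by 2.10 on the log2 scale (SE 0.27, adjusted p = 0.0188), while its Ws value was 0.70 (SE 0.27, adjusted p = 0.204). The difference between the responses was 1.399 (adjusted p = 0.303). With the replicate block it was called (adjusted p = 0.0264), which takes the system genes with a larger QK response to 1 of 28, where 0.587% of all tested probe sets were called. ERDJ3B and AT4G16660 were the 2 system genes raised in QK.

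Of the HSP110-type HSP70 list, 2 of 4 loci were tested and both rose in Ws, where 3.46% of all tested probe sets were raised. AT1G11660 rose by 2.30 in Ws (SE 0.20, adjusted p = 0.00165), with -0.21 in QK (adjusted p = 0.645) and a called difference of -2.51 (adjusted p = 0.0142). AT4G16660 had signals of 1003.8 and 1245.2 in heated QK and 94.4 and 143.6 in QK at control, against 449.1 and 451.5 in heated Ws and 89.1 and 127.8 in Ws at control. It rose by 3.09 in QK (SE 0.26, adjusted p = 0.00400) and by 1.92 in Ws (SE 0.26, adjusted p = 0.00889). The 2 responses did not differ after adjustment (1.17, adjusted p = 0.407), although its level in heated QK exceeded that in heated Ws by 1.28 (adjusted p = 0.0424).

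Among the exchange factors 4 of 14 loci were tested and FES1A alone was called in Ws, where 3.46% of all tested probe sets were raised. Its paralog Fes1B had a value of 0.39 in Ws with an SE of 1.35 (adjusted p = 0.929), and Fes1C had 0.53 with an SE of 0.62 (adjusted p = 0.711). Both were brighter in replicate 1 than in replicate 2 in every group, and the fit without the replicate block leaves this offset in the SE. With replicate 1 first, Fes1B had 346 and 56.7 in heated Ws against 187.8 and 59.7 in Ws at control. Fes1C had 364.2 and 188.2 against 223.4 and 139. Their values with the block are not given here. HOP proteins bridge HSP70 and HSP90. Of the list of HSP70-linked co-chaperones and the disaggregase 3 of 6 loci were tested, all of them HOP genes, and 2 of the 3 rose in Ws. HOP3 had signals of 9.8 and 67.3 in heated QK and 9.2 and 9.0 in QK at control, against 3049.1 and 3568.8 in heated Ws and 17.8 and 52.1 in Ws at control. It rose by 6.11 in Ws (SE 0.57, adjusted p = 0.00215) with a response difference of -5.23 (adjusted p = 0.0405), and HOP2 rose by 2.45 (SE 0.21, adjusted p = 0.00158) with a difference of -1.96 (adjusted p = 0.0370). HOP1 had 0.36 (adjusted p = 0.343).

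**Figure D4:**
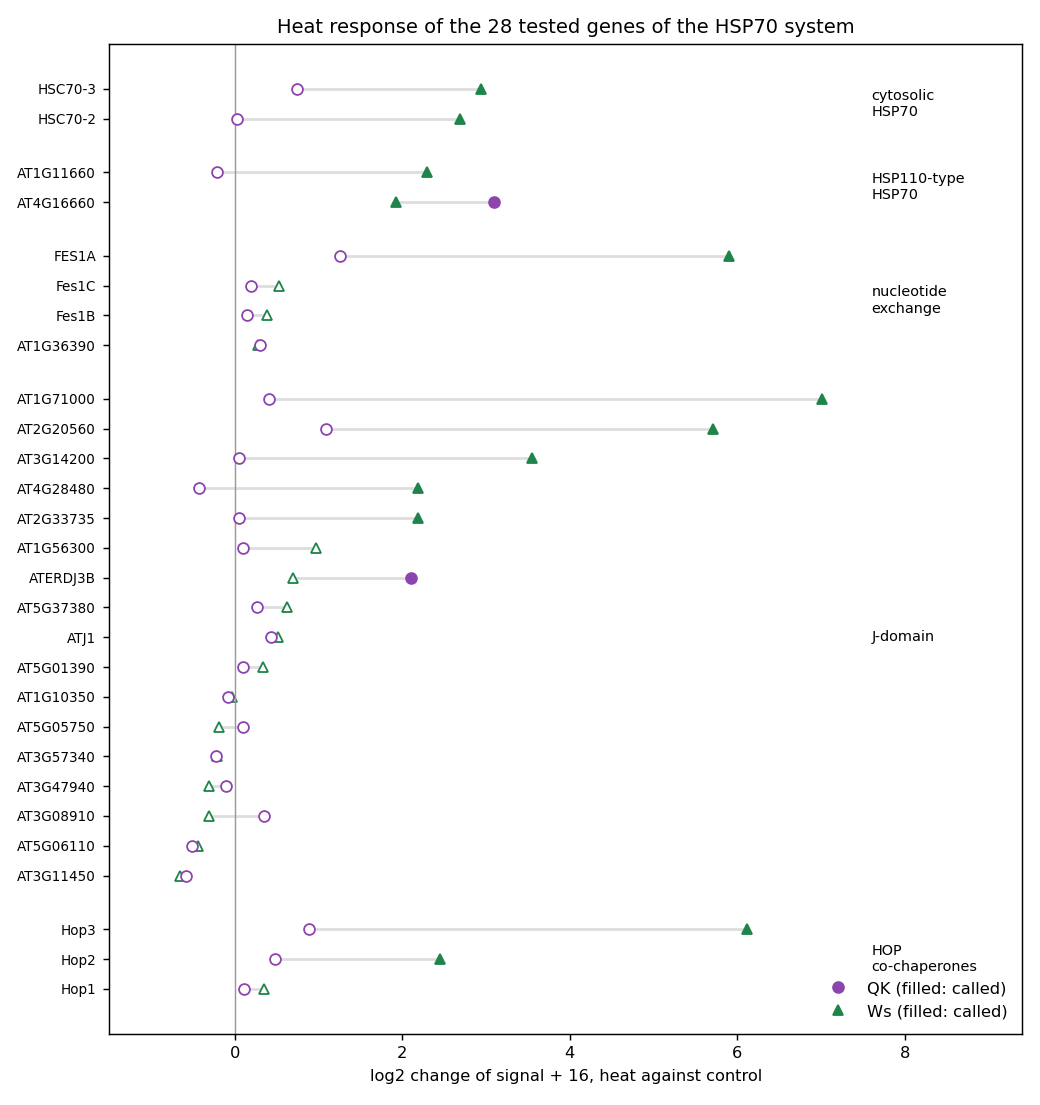
Log2 heat responses of the 28 tested HSP70 system genes in QK and in Ws, grouped by list, from the 8-array limma fit. In Ws 12 genes were called as raised, while in QK only AT4G16660 and ERDJ3B were, and these are the system genes with a QK value above 2.

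For each of the 4 genes the 5 single-gene probe sets with the closest pattern were taken from 7254 candidates, by Pearson's r of log2(signal + 16) over the 12 arrays. These arrays share 2 dominant states, so r is a description only. FES1A was matched best by AT1G30070 (0.997), HOP3 (0.997), AT2G20560 (0.997), HOP2 (0.995) and AT3G07090 (0.994), so 3 of its 5 were HSP70 system genes. Beside the 4 genes, 24 system genes were tested. The closest genes of HSC70-2, HSC70-3 and AT1G71000 held no gene of the HSP70 system lists. AT1G71000 was matched best by AT1G72660 (0.998), AT4G15420 (0.997), AT1G21550 (0.997), AT1G66080 (0.996) and AT5G53680 (0.996). AT5G53680 lay between 7.3 and 9.2 on the 4 QK arrays and reached 364.4 and 269.3 in heated Ws, while AT1G71000 stood at 25.0 on heated QK replicate 2.

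HSC70-2 and HSC70-3 shared 2 of their 5 closest genes. One was Cpn60beta2, a plastid chaperonin subunit, at r = 0.978 with HSC70-2 and 0.987 with HSC70-3. The other was AT5G12110, at 0.977 and 0.994. Cpn60beta2 had signals of 292.6 and 404.4 in heated QK and 189.5 and 324.1 in QK at control, against 5767 and 7122 in heated Ws and 276.1 and 857 in Ws at control. Its Ws control arrays differed in the same direction as those of HSC70-3, with replicate 2 the brighter. HSC70-3 was also matched by AT5G48570 (0.972), AT3G57810 (0.971) and BOB1 (0.971), a NudC-domain gene needed for thermotolerance. HSC70-2 was matched by AT5G04980 (0.978), AT5G42220 (0.977) and AT2G19310 (0.974). Between the 4 genes r was 0.987 for FES1A with AT1G71000, 0.968 for HSC70-2 with HSC70-3, 0.942 for HSC70-3 with FES1A, 0.941 for HSC70-2 with FES1A, 0.919 for HSC70-2 with AT1G71000 and 0.895 for HSC70-3 with AT1G71000.

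**Figure D5:**
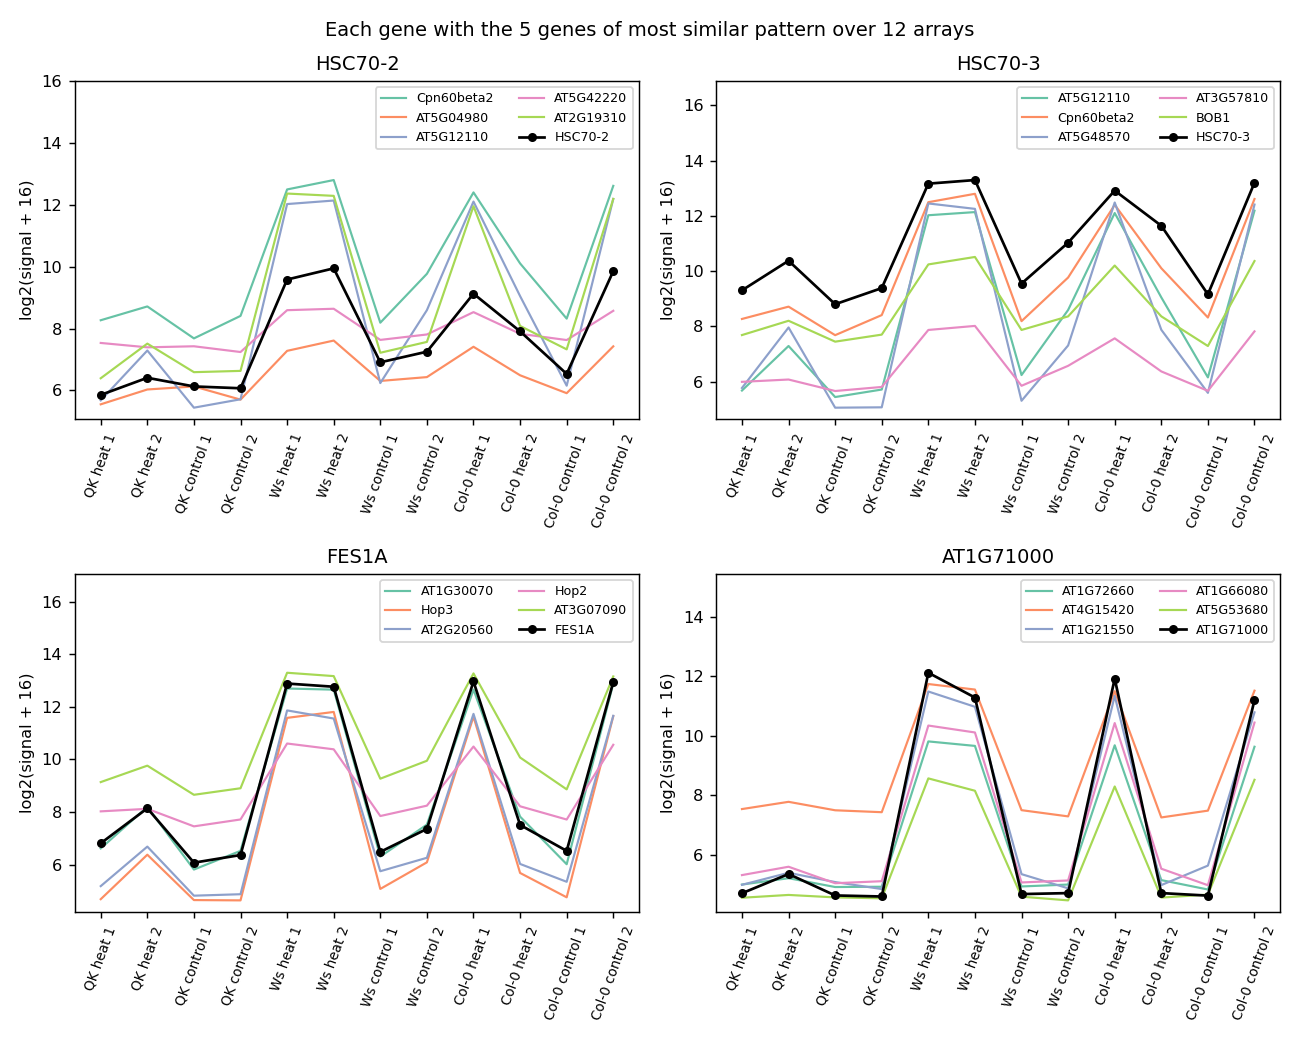
Log2(signal + 16) on each of the 12 arrays for each of the 4 genes (black line with points, 1 panel per gene) and for its 5 closest single-gene probe sets (coloured lines). Pearson's r between a gene and its 5 runs between 0.971 and 0.998, and all lines share the high values on the heated Ws arrays, on Col-0 heat replicate 1 and on the array that carries the label Col-0 control replicate 2.

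The genes beside the 4 on the chromosome were looked up by gene order in the TAIR10.1 annotation, 3 on each side and 24 in all, of which 7 had a tested single-gene probe set. In Ws 1 of the 7 was raised, where 3.46% of all tested probe sets were. This was AT3G09470, which lies 3 genes from HSC70-3 (1.22 on the log2 scale, adjusted p = 0.0255). AT5G02480, directly beside HSC70-2, was lowered in Ws (-1.91, adjusted p = 0.0119) and in QK (-1.73, adjusted p = 0.0329). Of all tested probe sets 2.05% were lowered in Ws and 1.36% in QK. Single calls among 7 genes are given as a description. FES1A and HSC70-3 lie on the same chromosome with 8 protein-coding genes between them. HSC70-1, a close homolog, lies directly on the other side of HSC70-2 and had no single-gene probe set here. Whether the HSC70-2 and HSC70-3 probe sets also pick up RNA of such homologs was not tested.

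The seedling label was checked against marker lists. Of the green tissue list 0 of 10 genes and of the pollen list 0 of 3 had a tested single-gene probe set. Of the maturing seed list 4 of 10 were tested, and their summed signal was 1540.4 to 3415.1 in heated QK and 865 to 2417.8 in QK at control, against 59.2 to 77.1 in heated Ws and 47.1 to 56.7 in Ws at control. The 2 of 7 tested root markers summed to 3446.9 to 3874.2 in heated QK and 6443.5 to 7491.5 in QK at control, against 1533.9 to 1790 in heated Ws and 4034.4 to 5043 in Ws at control. No tested marker was at 0. Both sums were thus higher in QK than in Ws at each temperature, beside the lower levels of the 4 genes in heated QK. The root sum was mostly PYK10, itself lowered by heat in Ws (log2 -1.44, adjusted p = 0.00968 in limma). The other root marker, AT1G30870, overlapped between heated QK (229.9 and 117) and heated Ws (50 and 128.1), but not between the lines at control. In Col-0, with the arrays as labelled, the seed marker sum was 50.3 to 93.7 at heat and 40.7 to 118.1 at control. The root marker sum there was 2777.3 to 5042.1 at heat and 1884.2 to 6522.8 at control. On the Col-0 replicate 1 arrays it was 2777.3 at heat, below both heated QK sums. At control it was 6522.8 on replicate 1, within the QK control range. The overlap with heated QK thus rested on the array labelled Col-0 heat replicate 2. The part of these markers in the differences between QK and Ws was not tested.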

How the data were processed

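The authors deposited 1 signal intensity per probe set and array, on a linear scale. The arrays were Affymetrix ones that received biotinylated cRNA, per the labels' protocols, and GCOS 1.4 is named in the submitters' processing notes. The summary algorithm, scaling target and detection calls are not given in the sources used here. No further normalization was applied, since array medians were close.

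Of 18465 probe sets, 10396 were paired with 1 gene (10340 matched in TAIR10.1), 398 with several and 7671 with none listed. Values were taken as log2(signal + 16). The 13631 probe sets above the 35th percentile of their array on at least 2 arrays were tested, 7258 of them with 1 gene. The tool was limma 3.58.1, run in R 4.3.3, which fitted a mean for each group, with variances that followed the mean signal, two-sided tests and Benjamini-Hochberg adjustment. Residual degrees of freedom were 4 with 8 arrays, 6 with 12 and 4 with 10. An exact permutation test of 2 against 2 arrays cannot go below p = 0.333 and was not used. The number of arrays limits the precision. The fit was tested on simulated data. Groups follow the labels, which call the replicates biological.

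Within the QK and Ws groups, arrays of equal replicate number deviated together (correlations of deviations from the group means between 0.587 and 0.807 in 6 of 6 pairs), so the numbers pair these arrays, as a pattern of the data. Over all groups 14 of 15 pairs exceeded 0.1 and the lowest was -0.173.

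The 4 genes and the gene lists were chosen with earlier results of these data known. Named were the 4 genes in every comparison, in each HSP70 system list up to 3 called genes that rose most and 3 that fell most in Ws or QK, and for each of the 4 genes the 5 probe sets of closest pattern. ATERDJ3B, Hop1, Hop2 and Hop3 are written ERDJ3B, HOP1, HOP2 and HOP3. AT4G28480, AT2G33735, Fes1B, Fes1C, HOP1 and the neighbouring genes were named after their values were seen. Where several probe sets named a gene, the brightest stood for it. Alternatives were other addends, filters and scalings, the replicate block, other sets of arrays and leaving out each array in turn. The 10-array fit with the replicate block was chosen after seeing the data.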

Additional observations from a re-analysis of the deposited data

Results flagged for a closer look

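The heat response of QK and that of Ws differed by the test of the difference itself for 3 of the 4 genes, in limma over the 8 arrays, where 1.25% of all tested probe sets had a response called as smaller in QK. For HSC70-2 the QK response minus the Ws response was -2.65 on the log2 scale (adjusted p = 0.0249). FES1A gave -4.65 (adjusted p = 0.0344). AT1G71000 gave -6.59 (adjusted p = 0.00281), but it was tested only through its bright arrays, and without it the count was 2 of 3. The HSC70-2 and FES1A calls were lost when any array other than QK heat replicate 2 was left out. The heat over control ratio was lower in QK than in Ws in 2 of 2 pairs of equal replicate number for these 3 genes and also for HSC70-3, whose difference was not called. The share of all tested probe sets with this order in each pair was not counted, and AT1G71000 had to be bright in heated Ws. The ratios are thus a description and add no support to the calls. The maturing seed and root marker sums, which in QK exceeded those in Ws at both temperatures, move with the line, and their part was not tested.

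AT1G56300, a J-domain gene outside the rule for named genes and singled out after its values were seen, was split by replicate number in every group. Its signal was 356 and 31.5 in heated QK and 329.1 and 28.7 in QK at control. It was 761 and 75.7 in heated Ws and 513.1 and 19.1 in Ws at control. On the Col-0 arrays it was 1118.9 and 26.3 under the heat label and 1027.6 and 54.1 under the control label, with replicate 1 given first throughout.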

How the results depend on the processing

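With all 12 arrays in 1 fit, in which the Col-0 pair labelled replicate 2 widens the shared spread, 0 of 4 genes were called for heat in Ws, for the QK response minus the Ws response and for QK against Ws at heat. The HSP70 system genes raised in Ws were then 0 in place of 12, those with a smaller QK response 0 in place of 9, and those raised in QK 1 in place of 2 (0 with the 4 QK arrays alone). With the replicate block, on 8 or 10 arrays, 1 system gene had a larger QK response in place of 0. On 8 arrays the block gave 10 with a smaller QK response in place of 9, and the block changed no call of the 4 genes in the 8-array comparisons. Leaving out 1 array at a time gave 1 to 2 system genes raised in QK, 1 to 3 of the 4 genes and 1 to 7 system genes with a smaller QK response, 3 to 4 genes called for heat in Ws and for QK against Ws at heat, and 0 to 1 genes for QK against Col-0 at control and at heat. Without the Col-0 pair labelled replicate 2, the log2 heat responses in Col-0 lay between 2.59 and 7.29, in place of 0.32 to 1.10. QK against Col-0 at heat then lay between -6.89 and -3.00, in place of -3.29 to -2.39.

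Signs turned in the Col-0 comparisons and in 1 other. Ws against Col-0 at control became 0.55, 1.13, 0.40 and 0.0681 for HSC70-2, HSC70-3, FES1A and AT1G71000 on 10 arrays, and 0.40, 0.72, 0.10 and 0.0917 with the block. At heat FES1A became -0.14 and AT1G71000 -0.22, and with the block HSC70-3 became -0.0917, FES1A -0.44 and AT1G71000 -0.20. QK against Col-0 at control became 0.0118 for AT1G71000 on 10 arrays with the block. Leaving out 1 array gave -0.24 to 0.31 for HSC70-2 in QK. For heat in Col-0 it gave -1.34 to 1.98 for HSC70-2, -0.92 to 3.12 for HSC70-3, -2.70 to 3.71 for FES1A and -3.20 to 4.004 for AT1G71000. For AT1G71000 in QK against Col-0 at heat it gave -6.89 to 0.32. For Ws against Col-0 at control it gave -2.77 to 0.55, -2.91 to 1.13, -6.02 to 0.40 and -6.51 to 0.0681 in the same gene order, and at heat -0.14 to 5.31 for FES1A and -0.22 to 6.99 for AT1G71000.

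Counts over all probe sets moved more: those raised in Ws, 471, ran between 8 and 550 over the alternatives, those lowered in Ws, 280, between 0 and 570, those raised in QK, 160, between 34 and 273, those with a smaller QK response, 170, between 0 and 290, and those lower in QK at heat, 368, between 55 and 484. Apart from the Col-0 pair labelled replicate 2, the cause of these shifts was not tested. With 2 arrays per group and dim control signals for AT1G71000, the size of its change is less certain than its direction.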
